A study of Mus musculus with 24 samples.

Results

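Open chromatin was described at 10 genes that mark macrophages by their surface receptors or their lysosomes: Csf1r, Adgre1, Cd14, Fcgr1, Itgam, Mertk, Trem2, Gpnmb, Cd68 and Lyz2. A peak was assigned to one of them where its summit had that gene as the nearest protein-coding gene body, at a distance of at most 50 kb. This gave 1081 of 1274891 peaks in the 24 lists. Merging overlapping peaks of all lists gave 77 regions at the 10 genes. Of these, 12 were found in 1 library and 65 in at least 2 libraries, out of 80598 such regions in the genome. The farthest summit assigned in this way lay 40075 bp from its gene, Fcgr1, and no summit nearest to one of the 10 genes lay beyond the limit. A region may act on a gene other than the nearest one.

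ATAC-seq, which reads open chromatin through the insertions of the Tn5 transposase, was carried out on macrophages derived from bone marrow of male C57Bl/6 mice, with 6 libraries in each of 4 groups. Macrophages of mice made diabetic with streptozotocin, which kills the insulin-producing cells of the pancreas, were either stimulated with 100 ng/mL LPS plus 10 ng/mL IFNγ or left unstimulated, and macrophages of untreated wild-type mice were handled the same way. LPS is a bacterial cell wall component, IFNγ is a cytokine of T and NK cells, and the pair drives inflammatory activation. The age of the mice and the length of the stimulation are not given clearly: the treatment protocol names only a 6 h culture with IL-1β, and states that baseline cells were lysed at once. If stimulated cells were lysed later, the states also differ in time in culture. That difference cannot be told apart from LPS plus IFNγ in what is called stimulation below.

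The 10 genes serve different steps of macrophage life. Csf1r is the receptor for the growth factor CSF1, on which macrophages depend for survival, and Adgre1 encodes F4/80, the adhesion-type receptor used to identify mouse macrophages. Cd14 hands LPS to the TLR4 receptor, Fcgr1 (CD64) binds IgG, and Itgam (CD11b) is the alpha chain of an integrin that binds complement-coated particles. Mertk and Trem2 recognise dying cells and lipids, and Gpnmb, Cd68 and Lyz2 encode a glycoprotein of the lysosomal pathway, a lysosomal membrane protein and lysozyme, an enzyme that cuts bacterial cell walls. Open regions near such genes are binding places for the lineage factor PU.1 and for the signal-dependent factors that join it in macrophages.

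The promoter windows of 4 of these genes are shown, because their gene starts fall into different classes of detection below. The regions at the starts of Gpnmb and Lyz2 were found in fewer stimulated libraries. Those at Trem2 and Cd68 were found in every library and were added for contrast after the values were seen. The contrast is in detection only: by rank of its peak, described below, the Trem2 start was lower in stimulated libraries, and the Cd68 start was not called. The sequences are from RefSeq on GRCm38.p6 (mm10), run from 250 bases before to 50 bases after the gene start, and are written 5′ to 3′ along the gene. Capitals mark matches, on either strand, to the PU.1 core AGGAAG, the AP-1 motif TGANTCA, the E-box CACGTG or the RUNX motif TGTGGT. On the other strand these read CTTCCT for PU.1 and ACCACA for RUNX.
Gpnmb, chr6:49036268-49036567, plus strand: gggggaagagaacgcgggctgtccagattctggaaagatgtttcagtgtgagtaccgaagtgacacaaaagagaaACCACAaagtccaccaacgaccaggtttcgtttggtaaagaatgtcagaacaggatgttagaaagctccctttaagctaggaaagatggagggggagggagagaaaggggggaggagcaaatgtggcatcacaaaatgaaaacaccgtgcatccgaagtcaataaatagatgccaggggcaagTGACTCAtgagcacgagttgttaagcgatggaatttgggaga
Lyz2, chr10:117282223-117282522, minus strand: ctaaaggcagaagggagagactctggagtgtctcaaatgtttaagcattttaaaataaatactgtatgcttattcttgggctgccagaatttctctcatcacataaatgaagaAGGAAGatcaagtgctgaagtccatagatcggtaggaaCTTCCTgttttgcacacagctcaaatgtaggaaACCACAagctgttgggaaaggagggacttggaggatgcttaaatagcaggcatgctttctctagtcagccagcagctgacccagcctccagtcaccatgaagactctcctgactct
Trem2, chr17:48346151-48346450, plus strand: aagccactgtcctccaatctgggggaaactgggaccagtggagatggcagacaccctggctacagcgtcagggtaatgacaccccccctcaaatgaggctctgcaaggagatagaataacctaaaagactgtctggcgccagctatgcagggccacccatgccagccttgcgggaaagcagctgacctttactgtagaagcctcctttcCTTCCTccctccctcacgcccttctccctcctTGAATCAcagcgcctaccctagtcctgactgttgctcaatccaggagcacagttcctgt
Cd68, chr11:69666121-69666420, minus strand: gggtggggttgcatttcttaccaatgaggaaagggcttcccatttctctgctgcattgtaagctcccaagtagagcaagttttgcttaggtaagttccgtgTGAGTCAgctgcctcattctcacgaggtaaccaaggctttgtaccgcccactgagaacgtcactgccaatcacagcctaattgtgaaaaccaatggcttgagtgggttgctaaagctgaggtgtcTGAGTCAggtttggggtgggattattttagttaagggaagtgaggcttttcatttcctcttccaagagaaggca

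The window table held 7 of the 10 genes, and Csf1r, Adgre1 and Cd14 were not matched. Counted from 1 at the 5′ end, the Gpnmb window held 1 AP-1 match at base 259 and 1 RUNX match at base 76. The Lyz2 window held 2 PU.1 matches, at bases 114 and 152, and 1 RUNX match at base 185. The Trem2 window held 1 PU.1 match at base 210 and 1 AP-1 match at base 242, and the Cd68 window held 2 AP-1 matches, at bases 102 and 227. Itgam had 2 PU.1 matches, Fcgr1 had 2 that overlap each other, and Mertk had none of the 4 motifs. No window of the 7 held the E-box. Over all 32851 windows of this length, 35.35% held the PU.1 core, 7.808% the AP-1 motif, 16.76% the RUNX motif and 7.15% the E-box. A match describes these letters only and does not show that a factor binds there.

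The genes differed in how much of their surroundings was open. Merged regions found in at least 2 libraries numbered 10 at Mertk and at Itgam, 9 at Gpnmb, 8 at Csf1r, 7 at Adgre1 and at Fcgr1, 6 at Trem2, 5 at Cd14, 2 at Cd68 and 1 at Lyz2. Of the 65 regions, 36 overlapped the gene body and 29 lay outside it, and their median width was 436 bp, against 417 bp for all regions of the genome. Every library had a peak at 19 of the 65, or 29.23%, close to the 28.25% of all regions. These 19 were spread over 8 genes: 4 at Fcgr1, 3 at Mertk, 3 at Itgam, 2 each at Csf1r, Adgre1, Cd14 and Trem2, and 1 at Cd68. Gpnmb and Lyz2 had none. In 25 of the 65, the number of libraries with a peak allowed a test of stimulation, and the remaining 21 were found in too few or too many libraries to reach an unadjusted p under 0.05.

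Ranked by the authors' fold enrichment within each library's list, the strongest region of the 10 genes lay 3463 bp beyond the end of Trem2 (chromosome 17, 48355739 to 48356283), at a mean percentile of 92.68 over the 24 libraries. It was followed by regions 4348 bp from Fcgr1 (chromosome 3, 96277514 to 96278561, percentile 85.64), 6196 bp from Csf1r (chromosome 18, 61098917 to 61099376, 85.06), 11127 bp from Adgre1 (chromosome 17, 57346953 to 57347454, 83.39) and 3405 bp beyond the end of Mertk (chromosome 2, 128806567 to 128807071, 80.56). For Itgam the strongest region lay 13402 bp before the start (chromosome 7, 128048785 to 128049238, 77.21), and for Cd14 it covered the higher-coordinate end of the gene (chromosome 18, 36726137 to 36727004, 77.82). Thus at 6 of these 7 genes the strongest region was outside the gene body. Cd68, Lyz2 and Gpnmb had weaker leading regions, at percentiles of 52.99, 45.63 and 43.76.

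The lists held between 41385 and 61861 peaks per library, with means of 53703 ± 4511 in stimulated and 55522 ± 4925 in unstimulated diabetic macrophages, and 47268 ± 4535 in stimulated and 55990 ± 3486 in unstimulated control macrophages (SD, n = 6 each). The number of reads behind each list is unknown. A peak in the gene body or within 1 kb of it was found in every library at 14 of 16 macrophage markers, the exceptions being Gpnmb and Lyz2. The 16 include the 10 genes described here. Among the rest, Spi1, Cx3cr1, Msr1, Tyrobp and Fcgr3 had a peak in all 24 libraries. The same held for 3 of 10 neutrophil, 3 of 10 T and NK cell, 0 of 8 B cell, 3 of 9 erythroid and megakaryocytic, 3 of 8 stromal and endothelial, 4 of 7 dendritic cell and 1 of 6 mast cell markers, and in the same order 2, 4, 2, 4, 3, 0 and 3 markers had no peak in any library. Some markers of other cells moved with stimulation. The T and NK cell markers averaged 3 of 6 libraries with a peak per marker in stimulated and 3.3 in unstimulated diabetic macrophages, and 2.1 in stimulated and 3.5 in unstimulated control macrophages. Among them Cd2 had a peak in 2 stimulated and 12 unstimulated libraries, and Themis in 0 of 6 stimulated and 5 of 6 unstimulated control libraries. In diabetic macrophages Themis went the other way, with a peak in 4 of 6 stimulated and 3 of 6 unstimulated libraries. Most of this list did not move: Cd3d, Cd4 and Lck had a peak in all 24 libraries, and Cd3e, Cd3g, Cd8a and Ncr1 in none. The neutrophil marker Mpo had a peak in 0 stimulated and 4 unstimulated libraries, and the dendritic cell marker Ccr7 in 4 stimulated and 0 unstimulated libraries. All 4 libraries with a Ccr7 peak were diabetic, and the dendritic cell markers Flt3, Zbtb46, Batf3 and Xcr1 had a peak in all 24 libraries. The neutrophil marker Cxcr2 did not follow Mpo, with a peak in 4 of 6 stimulated and 3 of 6 unstimulated control libraries and in every diabetic library. The part of such markers in the results below was not tested. In bulk chromatin a change in the mixture of cells and a change within each cell cannot be told apart.

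The first comparison asked how stimulation changed these regions, over 12 stimulated and 12 unstimulated libraries. Every called change was a loss of detection: 12 of the 25 tested regions were found in fewer stimulated libraries (48%, against 18.9% of the 31219 regions tested in the genome) and 0 of 25 in more (against 9.19%). The 12 lay at 7 genes, with 4 at Gpnmb, 2 at Cd14, 2 at Trem2 and 1 each at Csf1r, Adgre1, Mertk and Lyz2. Itgam, Fcgr1 and Cd68 had none, with 3, 1 and 1 regions tested. Over the 25 tested regions, 22 were found in fewer stimulated libraries, with a median difference of -5 libraries, whereas 62.21% of all tested regions were found in fewer, with a median of -2. Among the 25, 1 region had an unadjusted p under 0.05 in the other direction, against 3879 of 31219 over all. It lay 3307 bp before Gpnmb (chromosome 6, 49032952 to 49033211), with 5 stimulated and 0 unstimulated libraries and an adjusted p of 0.0967 (Fisher's exact test, Benjamini-Hochberg).

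Stimulated lists were shorter, mainly in control macrophages (means of 47268 stimulated and 55990 unstimulated, against 53703 and 55522 in diabetic macrophages). With every list trimmed to its 41385 peaks of lowest q-value, 5 of 19 tested regions at the 10 genes were found in fewer stimulated libraries (against 15.96% of all) and 0 in more (against 13.18%). Over the genome this trimming changed the calls to 3165 in more and 3833 in fewer libraries, against 2868 and 5901 with the full lists. The 5 that also passed with lists of equal length were at Gpnmb (2), Adgre1, Cd14 and Lyz2. Of the 12 calls, 8 were kept whichever library was left out. The other 4, at Lyz2, Csf1r, 1 of the Trem2 regions and 1 of the Cd14 regions, had an adjusted p of 0.0489 with all libraries and were lost when 1 library was left out, in 15, 16, 11 and 14 of 24 cases.

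**Figure D1:**
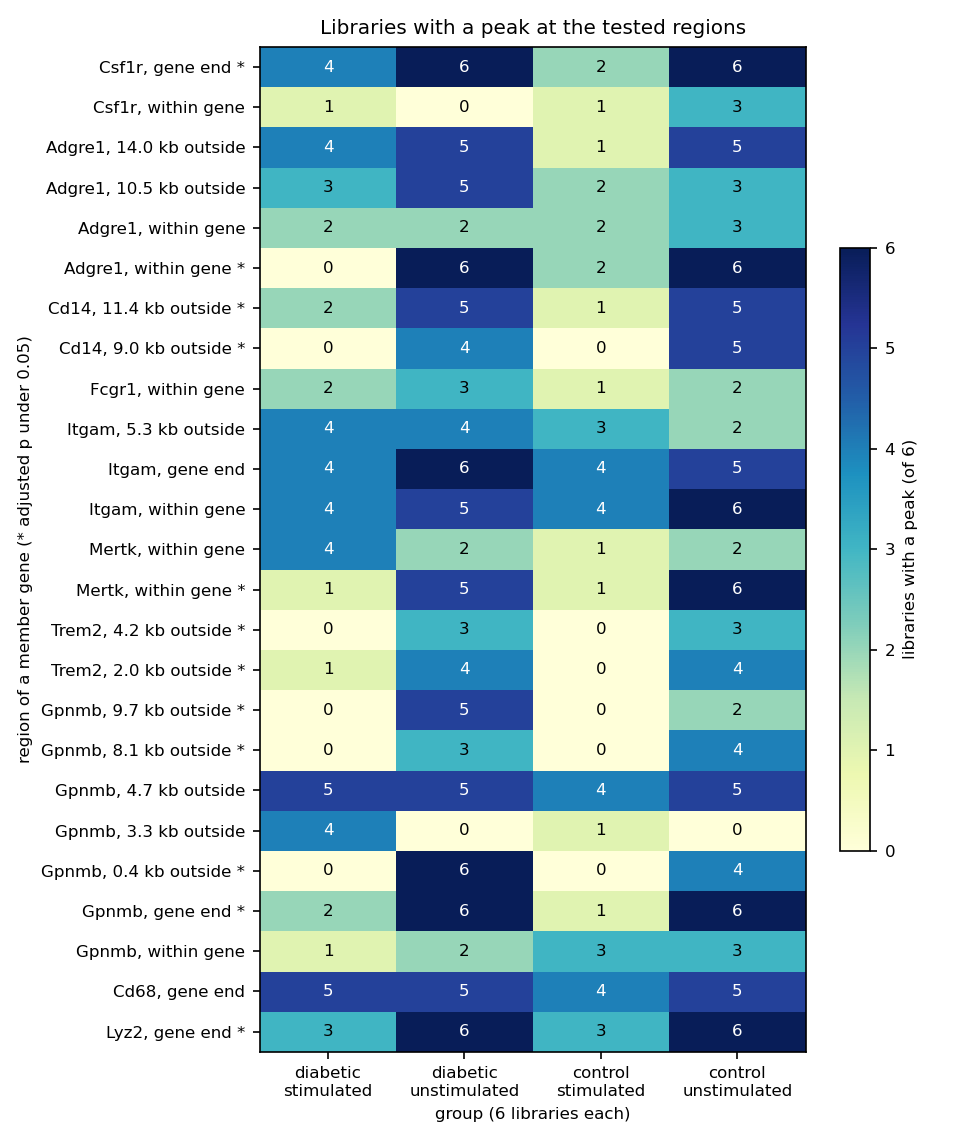
Number of libraries with a peak, of 6 per group, at the 25 regions in which stimulation could be tested. Rows are regions ordered by gene and position, columns are the 4 groups, "gene end" in a row label means either end of the gene body, darker cells stand for more libraries, and an asterisk marks the 12 regions with an adjusted p under 0.05 over 12 stimulated and 12 unstimulated libraries. At the 4 marked Gpnmb regions the stimulated columns hold 0 to 2 libraries and the unstimulated columns 2 to 6.

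Among the identity receptors, Csf1r had a called region over the lower-coordinate end of the gene (chromosome 18, 61105465 to 61106036). Peaks were found there in 6 of 12 stimulated libraries (4 diabetic and 2 control) and 12 of 12 unstimulated libraries (Fisher's exact test, adjusted p = 0.0489). Fold enrichment depends on sequencing depth and is given to describe peaks, with no test between states. It was low here in both states, at 2.97 to 4.86 with a median of 4.17 in stimulated libraries and 3.08 to 4.84 with a median of 3.94 in unstimulated libraries. Further into the gene, a region of 1494 bp (chromosome 18, 61107571 to 61109064) had a peak in all 24 libraries, as did the strong region outside the gene. Csf1r therefore had open regions in every library of both states, and its weak region at the lower-coordinate end was below the calling threshold in 6 of the stimulated libraries. The region 61127505 to 61127940, also within Csf1r, was found in 6 diabetic and 2 control stimulated libraries and in all 12 unstimulated libraries, too many libraries for the pooled test.

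At Adgre1, the called region lay within the gene (chromosome 17, 57409755 to 57410137). It had a peak in 2 of 12 stimulated libraries (0 diabetic, 2 control) and in 12 of 12 unstimulated libraries (Fisher's exact test, adjusted p = 0.00128). Its fold enrichment in unstimulated libraries ran from 4.52 to 9.87 with a median of 6.603, and the 2 stimulated peaks had 4.54 and 5.60. The diabetic macrophages alone separated completely here, with 0 of 6 stimulated and 6 of 6 unstimulated libraries (adjusted p = 0.0243, exact test). This diabetic call was lost with lists of equal length and with a −log10 q-value of at least 5, where 0 stimulated and 4 unstimulated diabetic libraries were left, too few for a test, and with no filter on regions (adjusted p = 0.213). The same values held for the diabetic call next to the Gpnmb start described further on. By contrast the region over the lower-coordinate end of Adgre1 (chromosome 17, 57358418 to 57359054) was found in all 24 libraries, with a median fold of 8.42 in stimulated and 10.5 in unstimulated libraries.

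Of the receptors that take up microbes and coated particles, Cd14 lost peaks at 2 regions outside the gene. The nearer, 8997 bp away (chromosome 18, 36715758 to 36716067), was seen in 0 of 12 stimulated libraries and 9 of 12 unstimulated ones (4 diabetic, 5 control; Fisher's exact test, adjusted p = 0.00388), with folds of 4.65 to 6.59 and a median of 5.57 where it was found. The farther, 11369 bp away (chromosome 18, 36713372 to 36713695), was seen in 3 of 12 stimulated libraries and 10 of 12 unstimulated ones (adjusted p = 0.0489). With lists of equal length the farther region was left in 2 stimulated and 4 unstimulated libraries and did not pass (Fisher's exact test, adjusted p = 0.849). With a −log10 q-value of at least 5 it was left in 1 stimulated and 8 unstimulated libraries (adjusted p = 0.0396). Peaks over the higher-coordinate end of Cd14 and in a region 4629 bp away were present in all 24 libraries.

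At Fcgr1 and Itgam no tested region passed. Fcgr1 had a peak in every library over its start (chromosome 3, 96293371 to 96294140), with a median fold of 7.75 in stimulated and 9.62 in unstimulated libraries, and at 3 regions outside the gene. Its 1 tested region, within the gene, was seen in 3 of 12 stimulated libraries and 5 of 12 unstimulated ones (adjusted p = 0.857, Fisher's exact test). The region at the Itgam start (chromosome 7, 128062496 to 128062855) was seen in 8 of 12 stimulated libraries and 11 of 12 unstimulated ones, which did not pass (adjusted p = 0.518). A second region, with its summit 880 bp inside Itgam (chromosome 7, 128063241 to 128063790), was found in all 24.

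Among the receptors for dying cells and lipids, Mertk had 1 called region, with its summit 20619 bp inside the gene (chromosome 2, 128719360 to 128719726). It was found in 2 of 12 stimulated libraries, 1 of each phenotype, and in 11 of 12 unstimulated libraries (Fisher's exact test, adjusted p = 0.00622). Folds in unstimulated libraries ran from 4.39 to 11.2 with a median of 6.01, and the 2 stimulated peaks had 4.92 and 6.58. The Mertk start (chromosome 2, 128698084 to 128699238) was open in all 24 libraries with a median fold of 7.47 in stimulated and of 7.39 in unstimulated libraries. Trem2 lost peaks on both sides of the gene. The region 4201 bp before its start (chromosome 17, 48341926 to 48342200) was seen in 0 of 12 stimulated libraries and 6 of 12 unstimulated ones (adjusted p = 0.0489), and the region 1957 bp beyond its end (chromosome 17, 48354233 to 48354509) in 1 of 12 stimulated libraries and 8 of 12 unstimulated ones (adjusted p = 0.0437). With lists of equal length the region beyond the end was left in 1 stimulated and 3 unstimulated libraries, too few for a test, and with a −log10 q-value of at least 5 in 1 stimulated and 4 unstimulated libraries (adjusted p = 0.493). The region before the start then had 0 stimulated and 5 unstimulated libraries under both settings (adjusted p = 0.0938 and 0.0882). Both were weak where found, with median folds of 5.29 and 4.75 in unstimulated libraries. The Trem2 start region (chromosome 17, 48346111 to 48346856), which covers the promoter window shown above, was found in every library.

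Among the lysosomal genes, Gpnmb had the most called regions of the 10 genes, 4 of 7 tested, all at or upstream of its start. At the start itself (chromosome 6, 49036325 to 49036809), which covers 243 of the 300 bases of the window shown above, a peak was found in 3 of 12 stimulated libraries (2 diabetic, 1 control) and in 12 of 12 unstimulated libraries (Fisher's exact test, adjusted p = 0.00388). Folds there were 3.44 to 4.78 with a median of 3.78 in stimulated libraries and 4.49 to 7.22 with a median of 6.06 in unstimulated libraries, so 2 of the 3 stimulated peaks lay under the lowest unstimulated one. The region next to it, 358 bp upstream (49035739 to 49036160), was seen in 0 of 12 stimulated libraries and 10 of 12 unstimulated ones (adjusted p = 0.00128), and in diabetic macrophages alone in 0 of 6 stimulated and 6 of 6 unstimulated libraries (exact test, adjusted p = 0.0243). Farther upstream, regions at 8140 bp (49028098 to 49028378) and 9718 bp (49026501 to 49026800) were each seen in 0 of 12 stimulated libraries and 7 of 12 unstimulated ones (adjusted p = 0.0235 for both). With lists of equal length these 2 regions were left with 0 stimulated libraries against 4 and 1 unstimulated ones, and with a −log10 q-value of at least 5 with 0 stimulated against 4 and 3 unstimulated, too few for a test under either setting.

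Not all of the Gpnmb locus followed this pattern. The region 4741 bp upstream (49031234 to 49031777) was seen in 9 of 12 stimulated libraries and 10 of 12 unstimulated ones, and the leading region, 13473 bp upstream (49022674 to 49023045), in 11 of 12 stimulated libraries and 12 of 12 unstimulated ones. The region within the gene at 49036881 to 49037222 had a peak in 4 of 12 stimulated libraries and 5 of 12 unstimulated ones.

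**Figure D2:**
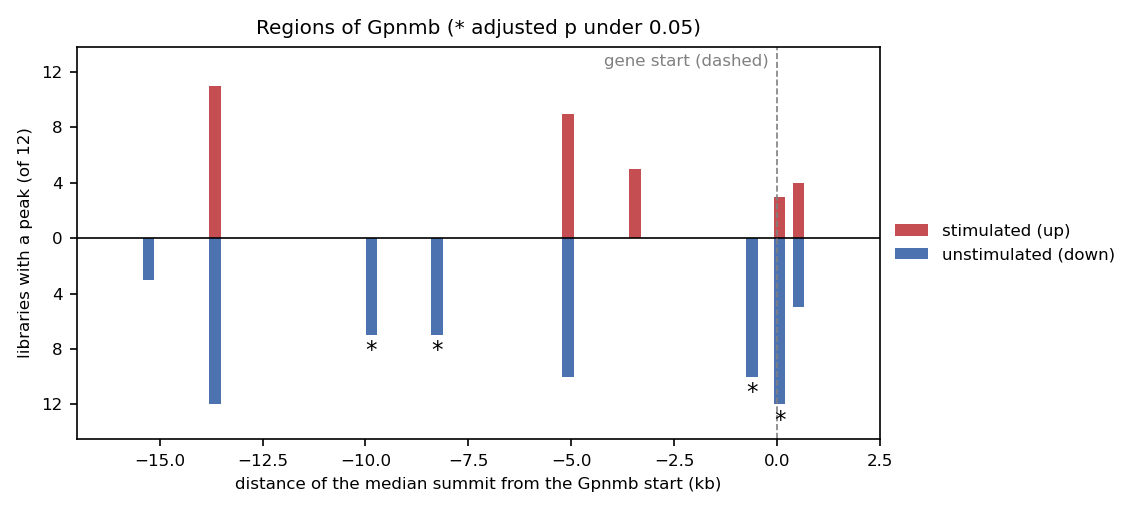
Regions of Gpnmb by distance of the median summit from the gene start, in kb, with the gene body to the right of the dashed line. Bars give the number of libraries with a peak, of 12 stimulated (up) and 12 unstimulated (down), and asterisks mark an adjusted p under 0.05. The marked regions reach 0 to 3 stimulated and 7 to 12 unstimulated libraries.

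Cd68 had no called region. The region over its start (chromosome 11, 69665911 to 69666549) was found in all 24 libraries, with folds of 4.31 to 7.71 and a median of 6.16 in stimulated libraries and of 6.58 to 8.15 with a median of 7.52 in unstimulated libraries. The region at its other end was seen in 9 of 12 stimulated libraries and 10 of 12 unstimulated ones (adjusted p = 1, Fisher's exact test). Lyz2 had 1 region in at least 2 libraries, over its start (chromosome 10, 117282056 to 117282495), which covers 273 of the 300 bases of its window. It was found in 6 of 12 stimulated libraries, 3 of each phenotype, and in 12 of 12 unstimulated libraries (adjusted p = 0.0489). Folds ran from 4.33 to 5.71 with a median of 5.155 in stimulated libraries and from 5.055 to 8.92 with a median of 6.88 in unstimulated libraries, and the states overlapped. Lyz2 has a near-identical neighbour, Lyz1, so reads that match both could be counted at either or left out, and its values are uncertain to that extent.

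Within each phenotype the same test had 6 against 6 libraries. In diabetic macrophages 2 of 8 tested regions were found in fewer stimulated libraries, at Adgre1 and next to the Gpnmb start (against 3.44% of all tested regions), and 0 of 8 in more (against 5.47%). In control macrophages 3 of 9 were found in fewer (33.33%, near the 27.5% of all tested regions), and 0 of 9 in more (against 8.41%). The 3 were the Gpnmb start and the Mertk region within the gene, each in 1 of 6 stimulated and 6 of 6 unstimulated libraries, and the nearer Cd14 region in 0 of 6 stimulated and 5 of 6 unstimulated libraries (Fisher's exact test, adjusted p = 0.0422 for each). The count of 3 was fragile: it was 0 without stimulated library 1, 2, 3 or 4 or unstimulated library 3, 4, 5 or 6, 1 without unstimulated library 1, and 6 without unstimulated library 2 or stimulated library 6. All comparisons within a phenotype use the libraries of the pooled one and add no separate evidence.

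A second measure asked how high these regions ranked where a peak was always present. The fold enrichment was ranked in each library among the 22770 regions found in all 24, which puts lists of different depth on one scale, and normal scores of the ranks were compared with limma. Of the 19 regions at the 10 genes, 6 ranked lower in stimulated macrophages (against 15.7% of all 22770) and 1 ranked higher (against 14.7%). The median difference was -0.29 normal-score units at the 19 regions and 0.023 over all.

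Itgam had the 2 largest shifts to a lower rank among the 19 regions and also the 1 shift to a higher rank. Its region 880 bp inside the gene ranked at percentiles of 2.08 to 39.6 with a median of 18.7 in stimulated libraries and of 22.9 to 64.7 with a median of 45.7 in unstimulated libraries (difference -0.82 ± 0.18 SE, limma adjusted p = 0.000765). The region 11511 bp before its start (128050688 to 128051129) ranked at 9.42 to 69.7 with a median of 41.1 in stimulated and 59.1 to 84.5 with a median of 66.0 in unstimulated libraries (-0.78 ± 0.18 SE, limma adjusted p = 0.00166). Next to that one, its leading region at 13402 bp ranked higher, at 33.2 to 82.7 with a median of 66.1 in stimulated and 28.1 to 73.0 with a median of 39.5 in unstimulated libraries (0.48 ± 0.16 SE, limma adjusted p = 0.0265). The ranges of both states overlapped at all 3. The higher call was lost without stimulated diabetic library 2 or unstimulated diabetic library 3, and when peaks were ranked by q-value in place of fold.

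The other 4 regions that ranked lower lay at other genes. The Trem2 start fell to a mean percentile of 17.9 ± 14.4 in stimulated libraries, against 37.5 ± 18.7 in unstimulated libraries (SD, n = 12 each; limma adjusted p = 0.0194). The region 4629 bp from Cd14 (36719743 to 36720435) had 14.2 ± 15.3 in stimulated and 32.6 ± 18.4 in unstimulated libraries (limma adjusted p = 0.0226). The region 6562 bp upstream of Fcgr1 (96300531 to 96301518) had 46.5 ± 12.96 in stimulated and 64.0 ± 11.51 in unstimulated libraries (limma adjusted p = 0.0161). The leading Mertk region beyond the gene end had 52.9 ± 29.7 in stimulated and 73.2 ± 19.5 in unstimulated libraries (limma adjusted p = 0.0397). The Mertk call was the least stable of these and was lost on leaving out any of 10 libraries: among unstimulated libraries, diabetic 2, 4 and 5 and control 2, 3 and 4, and among stimulated libraries, diabetic 1 and 6 and control 2 and 5. Both the Mertk and the Fcgr1 calls were lost when peaks were ranked by q-value. The gene-start regions of Cd68, Mertk and Fcgr1, the regions over the lower-coordinate end of Adgre1 and the higher-coordinate end of Cd14, and both always-open Csf1r regions did not pass.

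**Figure D3:**
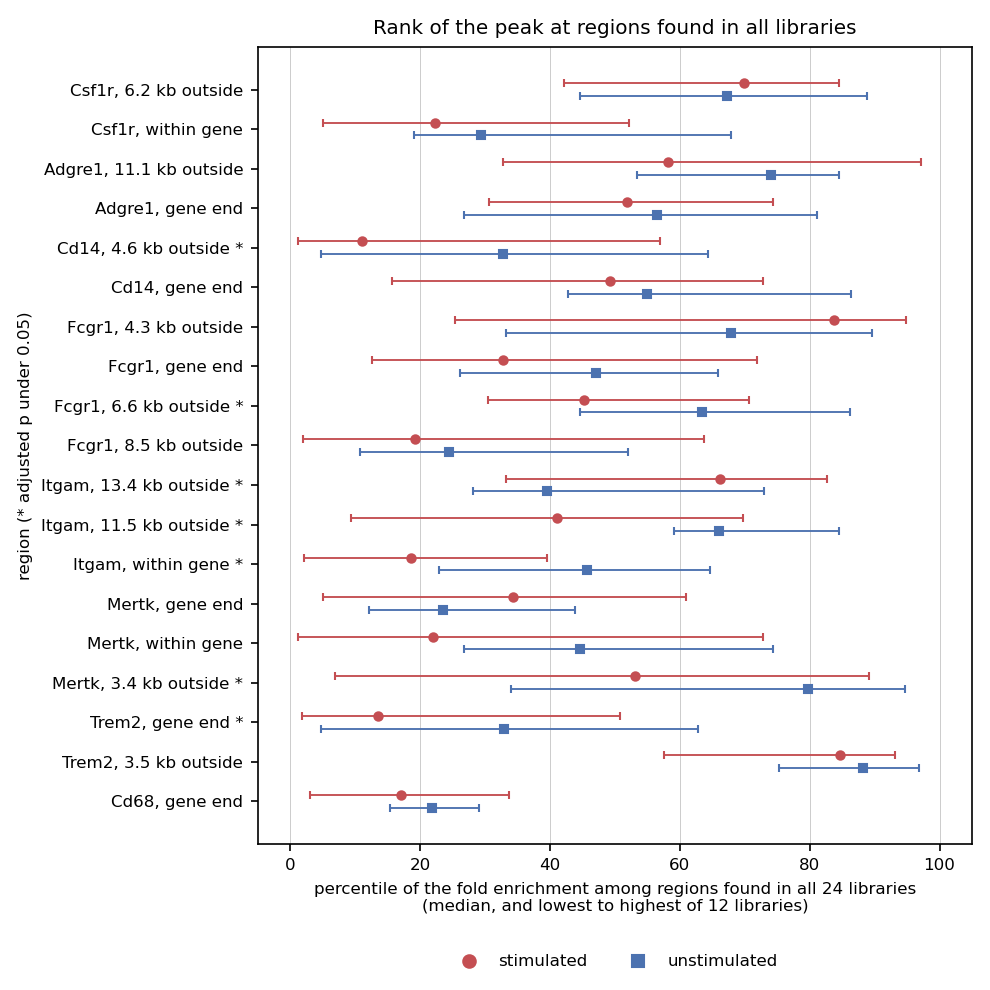
Percentile of the fold enrichment among the 22770 regions found in all 24 libraries, for the 19 such regions of the 10 genes, where "gene end" in a label means either end of the gene body. Circles and squares give the median of 12 stimulated and 12 unstimulated libraries, bars run from the lowest to the highest library, and asterisks mark a limma adjusted p under 0.05. The ranges of both states overlap at every region, including the 7 marked ones.

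Within phenotypes, 1 of the 19 regions ranked lower in stimulated diabetic macrophages, near the 5.51% of all regions, and 0 ranked higher (against 4.77%). The 1 was the Fcgr1 region 6562 bp upstream, at a median of 41.2 in stimulated and 66.0 in unstimulated libraries (limma adjusted p = 0.0256). That call was lost without stimulated library 1 or 6 or unstimulated library 1 or 5. In control macrophages 3 ranked lower (against 10.2%). These were the leading Mertk region, at a median of 37.5 in stimulated and 83.5 in unstimulated libraries (limma adjusted p = 0.00283), and the Itgam regions 880 bp inside the gene and 11511 bp before it (adjusted p = 0.00423 and 0.0166). The leading Itgam region ranked higher (1 of 19, against 9.52%; adjusted p = 0.0454), a call that 9 of the 12 leave-outs removed. In diabetic macrophages the Mertk region had medians of 84.3 in stimulated and 68.2 in unstimulated libraries. Its 2 responses differed by 1.66 normal-score units, diabetic minus control, with an unadjusted p of 0.00156, but neither it nor any other of the 19 regions passed for this difference (limma, adjusted p = 0.663 for Mertk, the smallest of the 19). An unadjusted p under 0.05 for this difference was found at 1 of the 19 regions and at 1524 of all 22770.

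Counting all peaks of a gene per library gave another view. Peak number was lower after stimulation at 4 of the 10 genes (against 6.91% of 16374 genes) and higher at 0 (against 1.95%), by a permutation test with 100000 random label orders. Gpnmb had 2.75 ± 1.29 peaks in stimulated and 5.92 ± 1.68 in unstimulated libraries (SD, n = 12 each; permutation test, adjusted p = 0.00645). By library the Gpnmb counts were 5, 3, 5, 2, 2 and 2 in stimulated diabetic, 6, 7, 9, 6, 6 and 4 in unstimulated diabetic, 2, 1, 3, 2, 2 and 4 in stimulated control and 8, 4, 7, 4, 6 and 4 in unstimulated control macrophages. The counts of 9 of the 12 stimulated libraries lay under all unstimulated ones, and the other 3 stimulated libraries had 4 or 5 peaks, within the unstimulated range. Csf1r had 5.58 ± 1.68 peaks in stimulated and 8.33 ± 0.78 in unstimulated libraries (permutation test, adjusted p = 0.00645), with 8, 6, 7, 4, 6 and 8 in stimulated diabetic against 9, 10, 9, 7, 8 and 8 in unstimulated diabetic, and 5, 3, 5, 4, 4 and 7 in stimulated control against 8, 8, 8, 8, 9 and 8 in unstimulated control macrophages. The counts by library are a description. Whether diabetic and control macrophages differed in their response was not tested for peak number.

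Trem2 had 3.58 ± 0.79 peaks in stimulated and 5.08 ± 0.996 in unstimulated libraries (permutation test, adjusted p = 0.0238), and Adgre1 had 3.67 ± 1.16 in stimulated and 5.08 ± 0.67 in unstimulated libraries (adjusted p = 0.0415). The Adgre1 call was lost with lists of equal length, with a stricter q-value, within 10 kb of the gene and on leaving out any of 6 libraries: unstimulated diabetic 2, unstimulated control 1 and 6, and stimulated control 1, 2 and 3. The other 6 genes did not pass. Cd14 had 2.67 ± 0.89 peaks in stimulated and 3.75 ± 0.62 in unstimulated libraries (permutation test, adjusted p = 0.0636), and Lyz2 had 0.50 ± 0.52 in stimulated and 1.08 ± 0.29 in unstimulated libraries (adjusted p = 0.0813). Itgam had 6 ± 1.04 in stimulated and 7 ± 1.04 in unstimulated libraries (adjusted p = 0.231). Fcgr1, Mertk and Cd68 differed by -0.67, -0.50 and -0.083 peaks, stimulated minus unstimulated (adjusted p = 0.564, 0.744 and 1). The median difference was -1.04 peaks over the 10 genes and -0.083 over all genes tested. Per 1000 peaks of a list, the 10 genes together held a median of 0.747 in stimulated and 0.955 in unstimulated diabetic, and 0.719 in stimulated and 0.890 in unstimulated control macrophages.

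**Figure D4:**
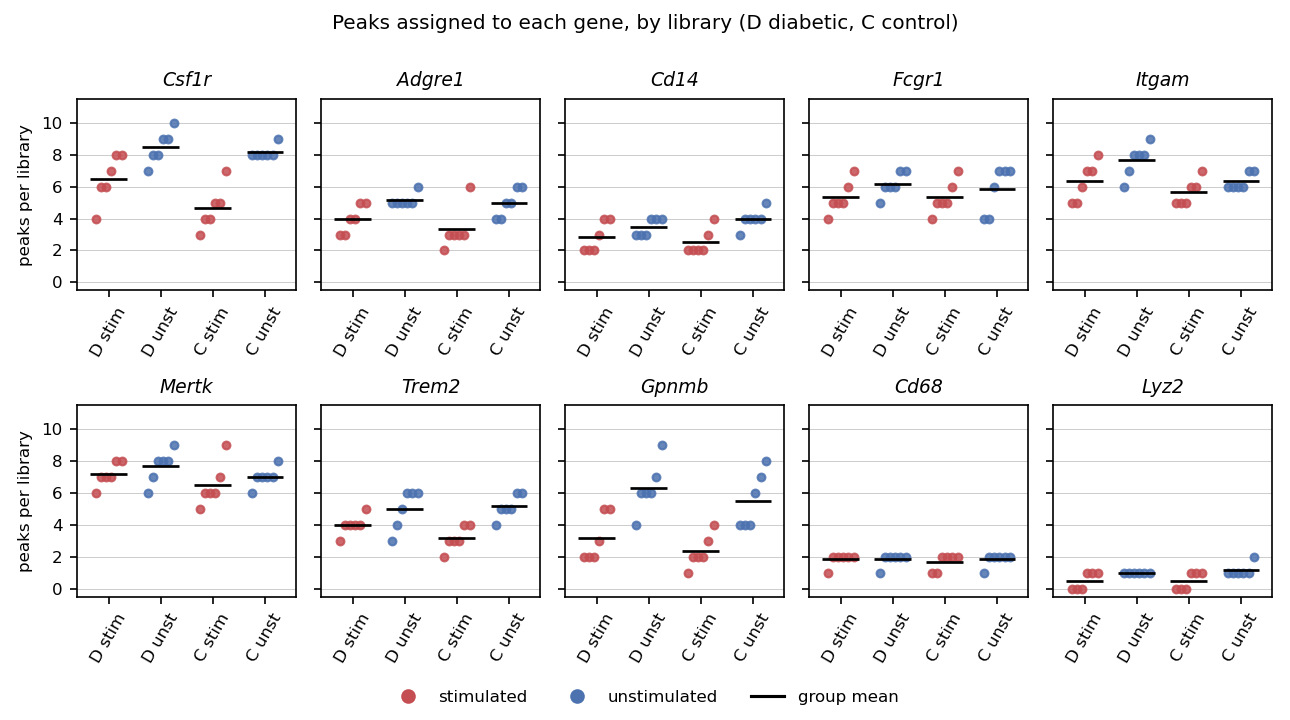
Number of peaks assigned to each of the 10 genes in each of the 24 libraries, by group, with D for diabetic and C for control. Each point is a library and each black line a group mean. Gpnmb and Csf1r show the widest gaps between states, and Cd68 stays at 1 or 2 peaks in every library.

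The second comparison asked whether diabetes changed these regions. It gave no call by detection, rank or peak number, in stimulated or in unstimulated macrophages, and neither did any other gene or region in the genome (0.0% called). With 6 against 6 libraries the exact tests of detection and peak number allow no p under 0.00216. So few regions and genes of the genome had a small p that even complete separation would not have passed the adjustment. The lack of calls by detection and peak number therefore does not show that the phenotypes are alike. By Fisher's exact test on 7 tested regions in each state, 0 had an unadjusted p under 0.05. Such a p was rare over the genome too. Of 8788 regions tested in unstimulated macrophages, 58 had it with more and 79 with fewer diabetic libraries. Of 9681 tested after stimulation, 283 had it with more and 9 with fewer. After stimulation, 6 of the 7 were found in more diabetic than control libraries and 0 in fewer, with a median difference of 2 libraries, whereas 69.56% of all tested regions were found in more, with a median of 1. In unstimulated macrophages 3 were found in more and 3 in fewer diabetic libraries. By rank, 1 of the 19 regions had an unadjusted p under 0.05 after stimulation (against 2108 of 22770 over all), the leading Mertk region. It ranked at 29.5 to 89.2 with a median of 84.3 in stimulated diabetic and 6.82 to 61.9 with a median of 37.5 in stimulated control libraries (limma adjusted p = 0.279), and the groups overlapped. Before stimulation 0 of the 19 had an unadjusted p under 0.05 (against 1058 of 22770 over all). For the test of whether diabetic and control macrophages responded differently, 0 of 7 regions tested by Zelen's exact test had an unadjusted p under 0.05. Of all 9353 regions tested in this way, 200 had such a p with the diabetic minus control response above 0 and 29 with it below 0.

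The values themselves show where the phenotypes lay. After stimulation Csf1r had 6.50 ± 1.52 peaks in diabetic and 4.67 ± 1.37 in control macrophages (SD, n = 6 each; exact permutation p = 0.0823, adjusted p = 1), and Trem2 had 4 ± 0.63 in diabetic and 3.17 ± 0.75 in control macrophages (exact permutation p = 0.145, adjusted p = 1). Gpnmb had 3.17 ± 1.47 peaks in diabetic and 2.33 ± 1.03 in control macrophages (exact permutation p = 0.379, adjusted p = 1). In unstimulated macrophages Itgam had 7.67 ± 1.03 peaks in diabetic and 6.33 ± 0.52 in control libraries, the 1 gene of the 10 with an unadjusted p under 0.05 (exact permutation p = 0.0455, adjusted p = 1). Over all 16374 genes, 177 had an unadjusted p under 0.05 in unstimulated macrophages. After stimulation 565 did, with 0 of the 10 among them. Stimulated control lists were also the shortest of the 4 groups, as given above, and their part in these values was not tested. The sum over the 10 genes in stimulated macrophages was 35 to 52 with a median of 41 in diabetic and 30 to 51 with a median of 32.5 in control libraries.

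Other genes were read from 2 lists chosen by function. The macrophage surface list also holds secreted ligands such as Il34 and Csf1, and the lysosomal list also holds transcription factors such as Mitf and Tfeb. For the 32 genes of the macrophage surface list, 66 of 216 regions were tested for stimulation over the pooled phenotypes. Of these, 6 were found in more and 20 in fewer stimulated libraries (against 9.19% and 18.9% of all tested regions). The leading regions found in more were within Axl, a receptor of the Mertk family (12 stimulated and 2 unstimulated libraries, adjusted p = 0.00128), 36142 bp from Ly6e (11 stimulated and 1 unstimulated, adjusted p = 0.00176) and within Il34, which encodes another ligand of the CSF1 receptor (9 stimulated and 1 unstimulated, adjusted p = 0.0184). Those found in fewer were led by regions within the scavenger receptor gene Cd36 (0 stimulated and 12 unstimulated libraries) and the mannose receptor gene Mrc1 (0 stimulated and 11 unstimulated), and by one 20858 bp from Csf1, a ligand of Csf1r (1 stimulated and 12 unstimulated), with adjusted p-values of 6.17e-05, 0.000303 and 0.000303 (Fisher's exact test). For the 28 genes of the lysosomal list, 72 of 190 regions were tested, 4 were found in more and 20 in fewer (against the same shares). Mitf, a transcription factor of the family that controls lysosomal genes, had a region within the gene seen in 12 stimulated libraries and 0 unstimulated ones (adjusted p = 6.17e-05). Npc2, which carries cholesterol out of lysosomes, had a region within the gene in 9 stimulated libraries and 0 unstimulated ones (adjusted p = 0.00388). A region 22910 bp from Scarb2, which encodes a lysosomal membrane protein, was seen in 1 stimulated library and 12 unstimulated ones (adjusted p = 0.000303). A region within Tfeb, a relative of Mitf, was seen in 3 stimulated libraries and 12 unstimulated ones (adjusted p = 0.00388). Psap, the precursor of lysosomal activator proteins, had 1 region in 7 stimulated and 0 unstimulated libraries and another in 0 stimulated and 12 unstimulated libraries (adjusted p = 0.0235 and 6.17e-05).

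As a description, the peak number of Gpnmb over the 24 libraries was most like that of Ap5z1 (Pearson r = 0.876), Lrrc17 (0.872) and Gm39147 (0.869), out of 13779 genes with a peak in at least 12 libraries. All of these counts come from the same libraries and share their depth and their state of stimulation.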

How the data were processed

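The authors deposited 1 narrowPeak list per library. Per the submitters' processing notes, the tools were MACS2 2.1.1 and Bowtie2 2.2.6, with FastQC 0.11.3, Trim Galore, edgeR and DiffBind 2.4.8, on the mm10 build. Their settings and any Tn5 shift of reads were not given in the sources used here. Every deposited peak has a score, a fold enrichment, a −log10 p-value and a −log10 q-value. These values of the authors served to describe, rank and filter peaks inside a list. No deposited −log10 q-value was under 1.30182, so a region without a peak is below a q-value of about 0.05 and is not shown to be closed. Read depth is unknown, and the length of a list limits what it can show.

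Per the labels' protocols, nuclei of 50000 cells were used per replicate, fragments over 1200 bp excluded and 50-bp single reads taken. Libraries are called by the replicate number in their titles. The p-values measure the spread between these libraries.

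Peaks were merged across lists (overlap of at least 1 bp) and regions in at least 2 libraries were kept. Libraries with and without a peak were compared by two-sided Fisher's exact tests, adjusted (Benjamini-Hochberg, threshold 0.05) over the regions that could reach an unadjusted p under 0.05. The difference of responses used Zelen's exact test. Ranks were turned to normal scores and fitted with limma 3.58.1 in R 4.3.3 over 4 group means. Peak numbers per gene were compared with two-sided permutation tests, exact over 924 label orders for 6 against 6 libraries (smallest p 0.00216) and 100000 random orders for 12 against 12 (smallest p 1e-05). The scripts were tested on simulated data. Gene bodies came from RefSeq on GRCm38.p6. Strand was taken from the promoter windows and was not used for Csf1r, Adgre1 and Cd14, and exons, introns and UTRs were not resolved.

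Named were the 10 genes, every region called, the leading region of each gene and the region at each gene start. Other regions of the 10 genes, such as those that did not pass at Csf1r, Gpnmb, Itgam, Fcgr1 and Cd68, and the marker genes given with values were named after their values were seen. For the other lists, up to 3 genes per direction were named by lowest p. The members and lists were chosen with earlier results of these data known. Alternatives were stricter q-values, lists of equal length, windows of 100 bp around summits, no filter, a 10 kb limit, a test stratified by phenotype, ranking by q-value, quantile normalization, a replicate block and leaving out each library. Over 12 pairs of same-numbered libraries the correlations of deviations from the group means were -0.0098 to 0.0090 for detection and -0.055 to 0.061 for rank. The series design says that samples were split between states, but the labels do not say that a replicate number marks the same mouse. Tests were therefore unpaired, and such correlations cannot show that the mice differed.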

Additional observations from a re-analysis of the deposited data

Results flagged for a closer look

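A library far from the other 5 of its group was seen in 3 of the 80 sets of 6 libraries examined, and chance flags about 1 in 20. Stimulated control library 6 had 51 peaks at the 10 genes, against 30 to 37 in the other stimulated control libraries. Without it, 12 of the tested regions were found in fewer and 1 in more stimulated libraries over the pooled phenotypes, peak number was lower after stimulation at 6 genes, and 6 regions were found in fewer stimulated libraries in control macrophages. Stimulated control library 5 had a percentile of 56.96 at the region 4629 bp from Cd14, where the others of its group had 1.153 to 14.4. Unstimulated control library 6 had a percentile of 33.21 at the region 4348 bp from Fcgr1, where the others had 67.28 to 82.26.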

How the results depend on the processing

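No direction was reversed under any alternative. Counts of regions found in fewer stimulated libraries, 12 over the pooled phenotypes, became 5 of 19 tested with lists of equal length (against 15.96% of all). With no filter the count was 5 of 77 (against 2.505% of all), since the adjustment then covers 102580 regions. With windows of 100 bp around summits it was 9 of 32 (against 13.16% of all). With the exact test stratified by phenotype it was 8. The regions lost there, at Lyz2, Csf1r, Trem2 and Cd14, were those also lost on leaving out libraries (adjusted p = 0.0537 to 0.0582, stratified exact test). In diabetic macrophages the count of 2 became 0 of 5 tested with a −log10 q-value of at least 5 (against 4.139% of all) and 0 with no filter (against 0%). With lists of equal length it became 1 of 4 (against 14.58%). That 1 was another region, since the 2 at Adgre1 and Gpnmb were left in too few libraries for a test. In control macrophages the count of 3 became 6 of 14 tested with the stricter q-value (against 34.31% of all) and 0 with no filter (against 0%). Ranking by q-value gave 0 higher and 10 lower over the pooled phenotypes (1 and 6 by fold), 2 lower in diabetic macrophages (1 by fold), and 0 higher and 9 lower in control macrophages (1 and 3 by fold). Over all 22770 regions it gave 3727 higher and 4071 lower over the pooled phenotypes. It gave 1526 lower in diabetic macrophages, and 2491 higher and 2790 lower in control macrophages. The cause of the other changes was not tested. With lists of equal length, peak number was lower at 4 genes, without Adgre1.

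Leaving out 1 library in turn gave 0 to 1 regions in more and 8 to 12 in fewer stimulated libraries over the pooled phenotypes, the 1 being the Gpnmb region 3307 bp upstream, called without stimulated diabetic library 4 or 6 or stimulated control library 6. It gave 2 to 3 in fewer in diabetic and 0 to 6 in fewer in control macrophages. Ranks gave 0 to 1 higher and 5 to 7 lower over the pooled phenotypes, 0 to 1 lower in diabetic macrophages, and 0 to 1 higher and 3 to 5 lower in control macrophages. Peak number was lower at 3 to 6 genes. Comparisons of diabetic with control macrophages had 0 calls at the 10 genes throughout.

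In the check of replicate numbers, 2 libraries by detection and 1 by rank correlated best with their own number. This does not settle whether a number marks the same mouse. With the replicate block, region calls in fewer stimulated libraries were 8 of 17 tested over the pooled phenotypes (against 23% of all). They were 2 of 2 in diabetic macrophages (against 30.72%) and 0 of 1 in control macrophages (against 59.3%), where the 6 pairs allow no p under 0.0312. The block gave 0 higher ranks in control macrophages and lower peak numbers at 2 genes. Of single named results under all alternatives, 651 kept their side of the threshold and 170 lost it. What depth limits is the weak peaks: a region just under the calling threshold counts as not found, and lists of unequal length differ in where that threshold lies.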
